A study of Mus musculus with 12 samples.

Results

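The antisense loci were the entries of the deposited merged transcript annotation whose transcripts all carry class code x, the code given to a transcript whose exons overlap exons of a known transcript on the opposite strand. Of 40039 loci with 144343 transcripts, 1154 met this rule, and 1476 held at least 1 such transcript. Each was read beside its partner, the locus on the opposite strand that shares most exon bases with it. RNA had been sequenced from mouse embryonic stem cells of C57BL/6J strain in 12 libraries, 3 in each of 4 groups: wild-type (WT) cells at day 0, WT cells at day 6, Notch1-/- cells at day 0 and Notch1-/- cells at day 6. All cells were grown on fibroblast feeders or gelatin with leukaemia inhibitory factor (LIF) at 1000 U per ml, and the labels do not say which support each library had. For day 6, drops of 1000 cells were hung to form embryoid bodies under a cardiac differentiation protocol. How Notch1 was removed, and from how many cell clones, is not stated in the labels. The design text calls the 3 libraries of a condition biological replicates, but no label says that they came from separate cultures, so p-values measure the spread between these libraries.

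Antisense transcripts are RNAs copied from the strand opposite a gene. Some are long non-coding RNAs with a known effect on the gene they overlap, as with Tsix at Xist and Airn at Igf2r, while many others are faint and have no known role. In a library that does not keep the strand of the RNA, only a read that crosses an intron shows which strand it came from, and no strand setting is stated for these libraries. The libraries were poly(A)-selected, which leaves out antisense RNAs without a poly(A) tail.

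Sequences are shown for starts on both strands at 1 pair and for 2 further partners, since the antisense loci opposite T, Eomes and Dkk1 were among those with the largest changes. Gm33460 is the gene whose structure the antisense locus opposite Eomes matched. Each run holds the 250 bases before a RefSeq start on build GRCm38.p6, written 5′ to 3′ on the strand of its gene, at chr9:118489780-118490029 on the minus strand for Gm33460, chr9:118477939-118478188 on the plus strand for Eomes, chr17:8434173-8434422 on the plus strand for T and chr19:30549497-30549746 on the minus strand for Dkk1.
Gm33460: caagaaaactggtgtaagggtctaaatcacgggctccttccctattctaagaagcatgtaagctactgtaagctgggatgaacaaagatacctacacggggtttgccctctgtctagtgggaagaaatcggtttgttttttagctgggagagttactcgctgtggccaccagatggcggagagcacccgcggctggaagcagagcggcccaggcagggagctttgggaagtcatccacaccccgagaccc
Eomes: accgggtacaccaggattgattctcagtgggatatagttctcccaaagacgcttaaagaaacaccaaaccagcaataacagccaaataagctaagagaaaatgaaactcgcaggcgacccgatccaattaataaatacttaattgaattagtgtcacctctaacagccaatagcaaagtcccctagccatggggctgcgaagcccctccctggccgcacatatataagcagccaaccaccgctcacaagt
T: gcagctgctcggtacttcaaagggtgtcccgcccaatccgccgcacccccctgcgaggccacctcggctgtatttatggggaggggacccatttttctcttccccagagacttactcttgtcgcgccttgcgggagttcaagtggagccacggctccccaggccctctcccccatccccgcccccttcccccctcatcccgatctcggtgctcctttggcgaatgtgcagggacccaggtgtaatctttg
Dkk1: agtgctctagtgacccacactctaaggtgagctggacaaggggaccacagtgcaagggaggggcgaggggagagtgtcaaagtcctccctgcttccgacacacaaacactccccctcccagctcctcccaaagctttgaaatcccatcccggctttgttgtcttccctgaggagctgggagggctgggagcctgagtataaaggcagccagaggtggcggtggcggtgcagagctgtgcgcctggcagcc
All letters are in lower case because neither motif searched was found in these windows on either strand: TCACACCT, a T-box site, or CTTTGAT, a site for the TCF and LEF factors of Wnt signalling. Of 32851 RefSeq windows of the same length, 1.12% held the first motif and 3.21% the second. The absence of these letters says nothing of binding elsewhere. These coordinates belong to GRCm38.p6 and all others in the text to mm9, the build of the deposited files.

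The antisense loci were long and had few exons. Of the 1154, 777 had 2 exons in the transcript with most exons, 216 had 3 and 29 had 1. Their median exon length was 6480 bases, against 2761.5 for spliced intergenic loci of the same annotation and 3332 for loci with a known transcript. The longest single exon had a median of 5005 bases, against 2016.5 and 1744. By position, 511 (44.3%) lay inside the span of the partner, 308 (26.7%) overlapped it tail to tail, 177 (15.3%) head to head, and 88 (7.6%) spanned it. The other 70 shared no exon base with an opposite locus, although each overlapped the span of one.

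The median locus shared 59.62% of its exon length with exons of other loci, on either strand. At least 90% was shared in 314 loci and under 25% in 293. Of 1055 spliced loci with a partner, 16 had an intron that lay within 20 bases of a partner intron at both ends, and 254 shared an outer end, to the base, with a transcript of the partner. The locus opposite T, XLOC_015414, was 1 of the 16: its intron ran from 8625600 to 8626319 on chromosome 17, and an intron of T ran from 8625613 to 8626309. At XLOC_009206, XLOC_013636, XLOC_023110, XLOC_024912 and XLOC_031572, 1 of the 2 ends of an intron lay at the same base as in the partner. No intron of any of the 1055 was identical to one of the partner. Zfp990, a zinc-finger gene on chromosome 4, had 5 antisense loci and Muc5b, a mucin gene, had 3, and 1034 of the 1057 partners had 1.

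**Figure D1:**
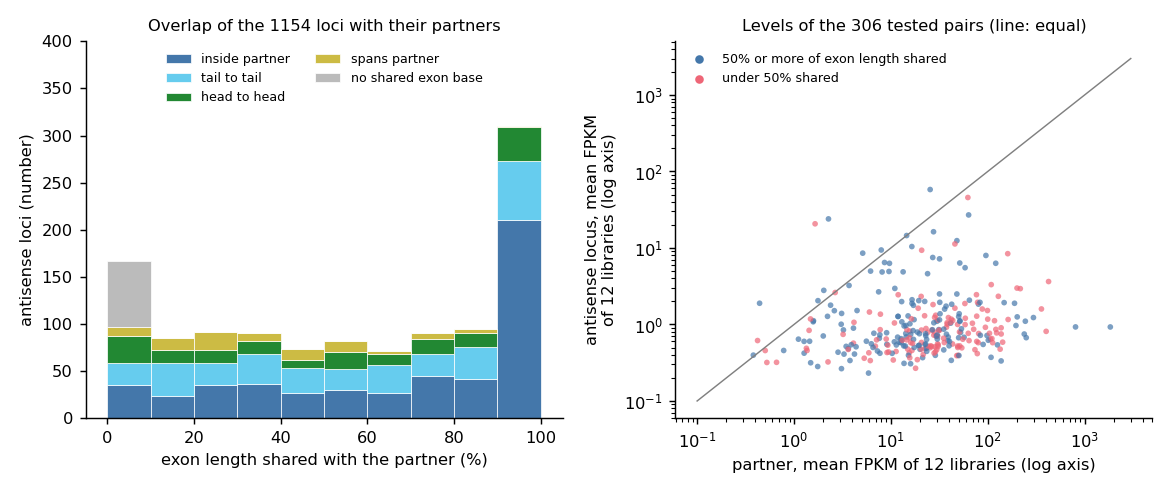
Left, the number of antisense loci (y axis) by the percentage of exon length shared with the partner (x axis), coloured by how the 2 loci are arranged. Right, mean FPKM over 12 libraries of each of the 306 pairs with both loci tested, antisense locus against partner, on log axes with a line at equal levels, where most points lie below the line.

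Depth and levels were as follows. Total counts per library ran from 100637179 to 134662426, of which 0.3902% to 0.522% fell in antisense loci. Levels are FPKM, fragments scaled by transcript length and library depth, so that levels can be compared between loci. Notch1 itself had 2.82 to 8.41 FPKM in the 6 WT libraries and 0.223 to 0.523 in the 6 Notch1-/- libraries. Summed FPKM of 22 feeder fibroblast markers ran from 366.2 to 1382 in WT day 0 and from 255.6 to 1117 in Notch1-/- day 0, against 159.8 to 202.2 and 23.86 to 30.41 at day 6. The sum of 7 visceral endoderm markers was 54.07 to 72.42 in WT day 6 and at most 4.25 in any other group, and that of 5 primitive streak markers was 152.3 to 344.3 in Notch1-/- day 6, 39.65 to 59.76 in WT day 6 and at most 14.67 at day 0. The sum of 7 endothelium and blood markers was 69.55 to 218.8 in WT day 6, 21.01 to 34.22 in Notch1-/- day 6 and at most 35.43 at day 0. Of the visceral endoderm markers, Afp and Ttr were under 0.1 FPKM at day 0, and of the feeder markers, Fap and Il1rl1 were under 0.1 at day 6. The sum of 9 stem cell markers was 725.1 to 984.7 in WT day 0, 191.8 to 235.8 in WT day 6, 672.4 to 1025 in Notch1-/- day 0 and 279.2 to 364.9 in Notch1-/- day 6. That of 7 cardiomyocyte markers was 5.355 to 8.122, 10.96 to 15.82, 8.976 to 9.399 and 13.63 to 31.96 in the same order. In bulk RNA, fewer cells of a type and less RNA per cell cannot be told apart.

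Most antisense loci were faint. Median FPKM, averaged over 12 libraries, was 0.14 for antisense loci, 0.07 for spliced intergenic loci and 0.36 for loci with a known transcript. Of the 1154, 130 averaged at least 1 FPKM, 11 at least 10, and 503 under 0.1. In all, 338 antisense loci (29.3%) reached 0.5 FPKM in at least 3 libraries and were tested, against 37.6% of all loci, and 816 were not. Between 213 and 292 antisense loci reached 0.5 FPKM in a given library. FPKM and counts treat shared exons differently: 144 of the 1154 had no count in any library, and so had 28 of the 338 tested. A further limit is that 18 loci were near 0 FPKM in 1 library while another library of their group had at least 0.5.

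The highest level belonged to XLOC_030627, a locus of 276 exon bases on the minus strand of chromosome 6 (140625817 to 140695772). It had 1715, 1596 and 1437 FPKM in WT day 0, 1692, 1743 and 1575 in WT day 6, 1698, 1633 and 1832 in Notch1-/- day 0, and 1704, 1388 and 1401 in Notch1-/- day 6. The groups overlapped and no comparison passed the test. Its model joins an exon of 5 bases across an intron of 69680 bases, and it has no partner. Next came XLOC_011361, which lies wholly inside the exons of an unnamed partner and had 37.4 to 92.7 FPKM with no count in any library. It fell over differentiation by 0.48 in WT and 0.59 in Notch1-/- cells (log2, limma adjusted p = 0.0301 and 0.0156). The WT fall was 0.30 without WT day 0 replicate 2 and lost its call without that or any 1 WT day 6 library, and the Notch1-/- fall lost its call without day 0 replicate 3 or day 6 replicate 1. XLOC_022551 had 31.6 to 56.6 FPKM, shared 8.92% of its exon length and passed in no comparison.

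Among 306 pairs in which both loci were tested, the antisense locus had the higher mean FPKM in 11. The median log2 ratio of antisense locus to partner was -4.57, with quartiles of -5.62 and -3.07. XLOC_005401, opposite the ubiquitin ligase gene Trim7, was 1 of the 11, with 9.58 to 31 FPKM against 0.822 to 4.45 for Trim7. The counts had the opposite order there, with 7 to 50 for XLOC_005401 and 683 to 3541 for Trim7. Across the 12 libraries the log2 level of the median antisense locus had an SD of 0.469, and the log2 ratio to the partner had an SD of 0.357. The ratio varied less than the antisense level itself in 193 of the 306 pairs, in 73 of 139 pairs with under 50% of exon length shared and in 120 of 167 pairs with 50% or more. Both loci of a pair come from the same libraries and may draw on the same reads.

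Differentiation was compared first, day 6 against day 0 within each genotype, with limma on log2(FPKM + 0.1) and Benjamini-Hochberg adjustment over all 15069 loci tested. A fold on this scale understates the change of faint loci. In WT cells 131 of the 338 antisense loci were called, 54 higher and 77 lower at day 6, where 45.0% of all loci were called, 22.7% higher and 22.3% lower. In Notch1-/- cells 104 were called, 47 higher and 57 lower, beside 36.3% of all loci, 21.0% higher and 15.4% lower. The share of antisense loci called was thus under that of all loci in both genotypes. The median log2 change of antisense loci was -0.04 in WT and -0.01 in Notch1-/- cells, against 0.00 and 0.07 for all loci. FPKM of the groups did not overlap in 170 antisense loci (50.3%) in WT and 158 (46.7%) in Notch1-/- cells, against 56.6% and 51.6% of all loci.

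In both genotypes, 69 loci were called: 24 rose, 43 fell, and 2 moved in opposite directions. The 2 were XLOC_010864, opposite 2610035F20Rik, and XLOC_020690, opposite an unnamed locus. Centring each library on its median shifted log2 changes by 0.141 in WT and 0.146 in Notch1-/- cells, and the Notch1-/- calls were then 34 higher and 68 lower. The WT calls were then 47 higher and 89 lower. Without WT day 6 replicate 1 the WT calls were 86, without its replicate 2 they were 83, and without Notch1-/- day 6 replicate 1 the Notch1-/- calls were 68. The filter, applied again each time, then passed 318, 322 and 331 antisense loci. Without Notch1-/- day 0 replicate 1 the Notch1-/- calls were 63 higher and 49 lower, and with a filter of 1 FPKM they were 31 higher and 27 lower, so their balance turned. On counts, edgeR called 89 loci in WT and 70 in Notch1-/- cells in the same direction as FPKM, of 103 and 84 called by FPKM and also tested by edgeR, where edgeR called 43.1% and 35.9% of all loci. Feeder and stem cell marker sums were lower at day 6 than at day 0 in both genotypes, by the values given above, and their part in the falls of antisense loci was not tested.

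The locus opposite T rose with T in both genotypes. T is the T-box transcription factor of the primitive streak and early mesoderm. XLOC_015414 lies inside T on the minus strand of chromosome 17 (8625306 to 8635361), has 9336 exon bases of which 51.67% are shared, and shares an outer end with a T transcript. It had 0.260, 0.194 and 0.0784 FPKM in WT day 0, 0.651, 0.602 and 1.40 in WT day 6, 0.0188, 0.00585 and 0.0160 in Notch1-/- day 0, and 6.42, 8.19 and 3.00 in Notch1-/- day 6. The 3 Notch1-/- day 6 libraries were above all others, and no library of a day 6 group overlapped its day 0 group. The log2 change over differentiation was 1.80 ± 0.414 (SE, limma adjusted p = 0.00511) in WT and 5.60 ± 0.414 (adjusted p = 1.48e-05) in Notch1-/- cells. With a pseudocount of 1, the WT change was 0.656 and no longer called.

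T itself had 8.23, 5.12 and 2.97 FPKM in WT day 0, 11.7, 11.4 and 28.0 in WT day 6, 0.522, 0.238 and 0.426 in Notch1-/- day 0, and 141, 178 and 58.5 in Notch1-/- day 6. XLOC_015414 stood at 2.46% to 5.55% of T in every library. This proportion was 2.46% to 3.8% at day 0 and 4.56% to 5.55% at day 6, so it rose without overlap in both genotypes. The counts divided the region otherwise. In Notch1-/- day 6 the counts assigned to XLOC_015414 were 4981, 7280 and 2766, and those assigned to T were 171, 158 and 67. The share of T reads in the antisense level was not tested.

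Eomes, the T-box factor of mesendoderm showed a like pair of changes. XLOC_037930 matched Gm33460, lies on the minus strand of chromosome 9 (118367002 to 118398965), has up to 7 exons with 16639 bases, shares 44.52% of them with Eomes and spans it. Its FPKM was 0.0545, 0.177 and 0.0367 in WT day 0, 0.599, 0.563 and 0.659 in WT day 6, 0.185, 0.0736 and 0.0625 in Notch1-/- day 0, and 3.57, 4.11 and 2.54 in Notch1-/- day 6. Each day 6 group was above its day 0 group without overlap. The log2 change was 1.97 ± 0.315 (SE, limma adjusted p = 0.0006) in WT and 4.11 ± 0.315 (adjusted p = 1.61e-05) in Notch1-/- cells. Eomes rose from 1.04 to 5.27 FPKM at WT day 0 to 12.5 to 15.1 at day 6, and in Notch1-/- cells from 2.27 to 6.56 to 62.5 to 106. The antisense level was 2.09% to 4.74% of that of Eomes.

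Dkk1 encodes a secreted antagonist of Wnt signalling. The locus that spans it on the plus strand, XLOC_018029 (chromosome 19, 30620353 to 30643819, 4528 exon bases, 49.4% shared with Dkk1), was near 0 at day 0 in both genotypes. It had 0.0160, 0.00464 and 0.00503 FPKM in WT day 0, 1.68, 1.35 and 1.48 in WT day 6, 0.0195, 0.0163 and 0.0120 in Notch1-/- day 0, and 2.06, 1.62 and 1.10 in Notch1-/- day 6. The day 6 libraries of both genotypes overlapped each other and stood far above day 0. It rose by 3.88 ± 0.219 (log2, SE, limma adjusted p = 1.26e-06) in WT and by 3.83 ± 0.219 (adjusted p = 6.83e-06) in Notch1-/- cells, and edgeR gave 7.74 and 7.31. Dkk1 rose from at most 0.369 FPKM at day 0 to between 9.49 and 21.8 at day 6, although no library had a count for it.

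Gnas, the imprinted gene of the stimulatory G protein alpha subunit, lies opposite XLOC_021539 (minus strand, chromosome 2, 174134787 to 174172525, 35811 exon bases, 69.5% shared). The antisense locus had 0.741, 0.634 and 0.514 FPKM in WT day 0, 2.47, 2.40 and 2.29 in WT day 6, 0.546, 0.521 and 0.494 in Notch1-/- day 0, and 1.5, 1.35 and 1.33 in Notch1-/- day 6. All 4 groups except the day 0 pair were apart from each other. It rose by 1.78 ± 0.166 (log2, SE, limma adjusted p = 2.02e-05) in WT and 1.26 ± 0.166 (adjusted p = 0.000297) in Notch1-/- cells, and Gnas rose by 2.00 and 1.24. Its level was 0.304% to 0.559% of that of Gnas, which ran from 97.7 to 650 FPKM. In counts the antisense locus of Gnas rose by 2.22 in WT (edgeR adjusted p = 2e-06), while Gnas changed by 0.16 and did not pass (adjusted p = 0.629).

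**Figure D2:**
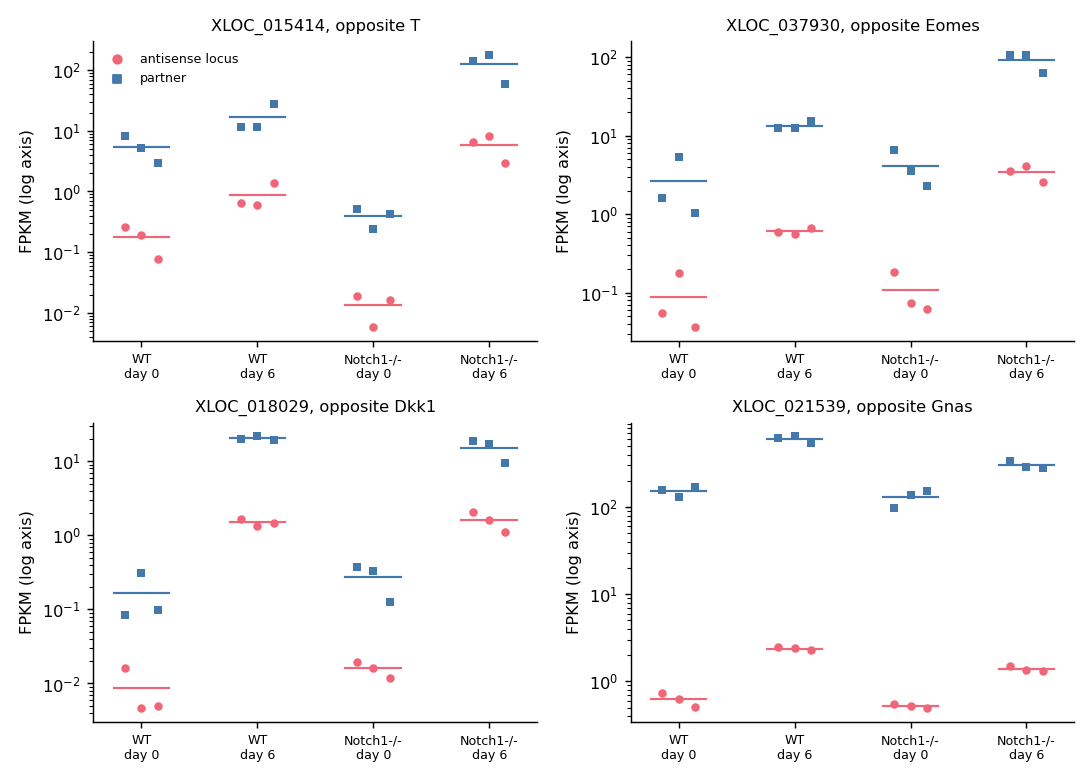
FPKM (log axis) of 4 antisense loci (circles) and their partners T, Eomes, Dkk1 and Gnas (squares) in the 3 libraries of each group, with group means as bars. At T the antisense locus reaches 8.19 FPKM and T reaches 178 in Notch1-/- day 6, and the 2 loci of each pair move together across groups.

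Among falls, XLOC_003401 lies opposite a merged locus that holds Dnmt3l, a cofactor of de novo DNA methylation, and Icosl. It had 1.02, 2.13 and 1.36 FPKM in WT day 0, 0.218, 0.176 and 0.283 in WT day 6, 1.92, 1.82 and 1.95 in Notch1-/- day 0, and 0.254, 0.293 and 0.218 in Notch1-/- day 6. No day 6 library reached the lowest day 0 library. It fell by 2.25 ± 0.25 (log2, SE, limma adjusted p = 6.45e-05) in WT and by 2.50 ± 0.25 (adjusted p = 6.69e-05) in Notch1-/- cells, and its partner fell by 3.18 and 3.57. XLOC_036325, opposite the neuronal RNA-binding gene Elavl3, had 1.18, 1.29 and 0.646 FPKM in WT day 0 and 0.0259, 0.0307 and 0.0730 in WT day 6. It fell by 2.96 in WT (adjusted p = 0.000666) and Elavl3 by 4.04. In Notch1-/- cells its values were 2.36, 0.953 and 0.612 at day 0 and 0.474, 0.296 and 0.972 at day 6, which overlap.

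Of the 77 falls in WT, that of XLOC_007113 was the largest on the log2 scale. It lies on chromosome 12 (89312006 to 89560236), opposite an unnamed locus, and went from 3.16, 5.11 and 2.11 FPKM to 0.244, 0.221 and 0.148, a log2 change of -3.47 ± 0.515 (SE, limma adjusted p = 0.000373). It was also lower in Notch1-/- than WT cells at day 0, with 0.137, 0.286 and 1.13 FPKM (log2 -2.80, adjusted p = 0.00909). Outside WT day 0, XLOC_007113 reached 0.5 FPKM in Notch1-/- day 0 replicate 3 alone, too few to pass the filter. Its adjusted p values are thus no independent support for a high WT day 0 level. XLOC_032863 shares 0.13% of its exons with Gm4884 and so hardly overlaps it. It fell in WT from 2.74, 6.92 and 6.45 to 0.396, 0.469 and 0.762 FPKM (log2 -3.02, adjusted p = 0.000226), while Gm4884 stayed under 0.1 FPKM in every library. Its fall in Notch1-/- cells was -1.45 (adjusted p = 0.0196), and -1.18 without Notch1-/- day 0 replicate 3 and -1.14 without day 6 replicate 1, both no longer called. XLOC_004979 and XLOC_015813 fell in both genotypes with their unnamed partners, but had at most 20 counts in a library. XLOC_036741 on chromosome 9, which shares no exon base, fell by 1.74 in WT and 2.55 in Notch1-/- cells, and XLOC_039358, matched to Gm4779 on the X chromosome, fell by 1.28 and 2.71.

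FPKM and counts differed at XLOC_013615, which lies opposite P3h2, a collagen prolyl hydroxylase gene, with 87.75% of exon length shared. Its FPKM rose from 0.0905, 0.163 and 0.187 to 3.78, 3.76 and 4.31 in WT and from 0.0704, 0.228 and 0.420 to 3.87, 3.02 and 1.54 in Notch1-/- cells, and P3h2 rose beside it by 4.13 and 3.70 (log2). It had no count in 10 of the 12 libraries and 5 and 4 in Notch1-/- day 0 replicates 2 and 3. XLOC_026618, a locus of 249 exon bases opposite Gm17019, had 18.1, 19.3 and 14.4 FPKM in WT day 6 and at most 0.776 in any other library, yet at most 2 counts in any library. XLOC_006929, opposite the chromatin remodeller gene Baz1a and chosen after its values were seen, changed by 3.39 in FPKM and by -1.07 in counts in WT.

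**Figure D3:**
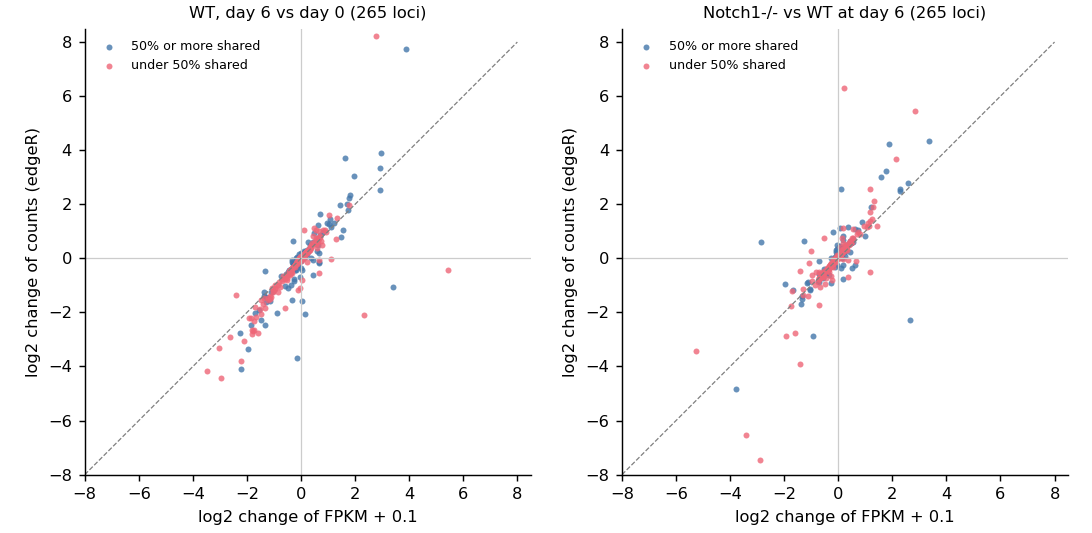
log2 change of counts from edgeR (y axis) against log2 change of FPKM + 0.1 (x axis) for the 265 antisense loci tested by both, in WT day 6 against day 0 and in Notch1-/- against WT at day 6, with a line at equal change. Points under 50% and at or above 50% shared exon length both gather along the line, and a few lie far off it, among them XLOC_025885 at 5.45 in FPKM and -0.41 in counts.

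Loss of Notch1 was compared next, at day 0. Of the 338 antisense loci, 31 were called, 10 higher and 21 lower in Notch1-/- cells, where 7.05% of all loci were called, 2.94% higher and 4.11% lower. The median log2 difference was -0.15 for antisense loci and -0.07 for all loci. The groups did not overlap in 71 antisense loci (21.0%), against 18.8% of all loci. The number of called loci moved with single libraries: it was 74 without WT replicate 2, 20 without WT replicate 3, 55 without Notch1-/- replicate 1 and 18 without Notch1-/- replicate 2. The filter then passed 329, 328, 329 and 333 antisense loci. Counts also tested 25 of the called loci, and edgeR, which called 9.56% of all loci, called 20 of them, each in the same direction. Feeder marker sums overlapped between the genotypes at day 0.

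At day 6, 84 antisense loci were called between genotypes, 30 higher and 54 lower in Notch1-/- cells, beside 31.8% of all loci, 15.8% higher and 16.0% lower. The median log2 difference was -0.05 for antisense loci and 0.02 for all loci. Groups did not overlap in 212 (62.7%), against 66.8%. Leaving out WT day 6 replicate 1 left 40 calls, 22 higher and 18 lower. Without replicate 2 there were 44, 24 higher and 20 lower, and without replicate 3 there were 47, 27 higher and 20 lower. The filter was applied again, so 318, 322 and 319 antisense loci were tested there, not 338. Loci that passed only through WT day 6 left the test. Lower calls were thus not in excess among the loci still tested, and the part of the filter in this was not tested. Of 60 called loci that edgeR also tested, it called 48, each in the same direction, and 28.1% of all loci. Sums of feeder, visceral endoderm and endothelium and blood markers were lower in Notch1-/- than WT day 6, and those of stem cell and streak markers higher, by the values given above, and their part was not tested. At both days 20 loci were called: 9 higher, 10 lower and 1, XLOC_032483 opposite Ssc5d, Isoc2a and Nat14, lower at day 0 (-0.74) and higher at day 6 (0.88).

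Of the 10 loci higher in Notch1-/- cells at day 0, XLOC_005250 had the largest difference. It lies on the minus strand of chromosome 11 (5585369 to 5601196) and overlaps the tail of Ankrd36, an ankyrin repeat gene, by 15.47% of its 15828 exon bases. It had 0.112, 0.0839 and 0.107 FPKM in WT day 0, 0.0321, 0.0378 and 0.0283 in WT day 6, 3.91, 2.38 and 3.83 in Notch1-/- day 0, and 0.912, 0.799 and 0.863 in Notch1-/- day 6. All 6 Notch1-/- libraries were above all 6 WT libraries. The log2 difference was 4.08 ± 0.208 (SE, limma adjusted p = 1.5e-06) at day 0 and 2.85 ± 0.208 (adjusted p = 5.85e-06) at day 6, and edgeR gave 5.67 and 5.44. Ankrd36 stayed under 0.1 FPKM in every library. The counts of XLOC_005250 were 141 to 164 in WT day 0 and 5589 to 7231 in Notch1-/- day 0.

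XLOC_024705 (plus strand, chromosome 4, 132287721 to 132301567) lies opposite Smpdl3b, a lipid phosphodiesterase gene, and Xkr8, a phospholipid scramblase gene. It had 0.161, 0.240 and 0.350 FPKM in WT day 0, 0.0400, 0.0413 and 0.0290 in WT day 6, 1.19, 1.12 and 0.797 in Notch1-/- day 0, and 0.323, 0.432 and 0.335 in Notch1-/- day 6. Notch1-/- was above WT without overlap at each day. The differences were 1.71 ± 0.235 (log2, SE, limma adjusted p = 0.00155) at day 0 and 1.75 ± 0.235 (adjusted p = 0.000369) at day 6, and the partner was higher by 1.04 and 1.47. XLOC_024705 passed the filter only through its Notch1-/- day 0 libraries, so its day 0 adjusted p is no independent support for that difference.

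XLOC_033181 differed from its partner. It lies head to head with a merged locus of Aen, a p53-induced nuclease, and Isg20, an exonuclease gene, on chromosome 7 (86038439 to 86060008, minus strand, 51.58% shared). It had 0.742, 0.916 and 0.581 FPKM in WT day 0, 0.469, 0.529 and 0.638 in WT day 6, 1.36, 2.23 and 2.45 in Notch1-/- day 0, and 2.70, 3.41 and 3.06 in Notch1-/- day 6, so no Notch1-/- library overlapped WT. It was higher in Notch1-/- cells by 1.30 ± 0.246 (log2, SE, limma adjusted p = 0.0108) at day 0 and 2.29 ± 0.246 (adjusted p = 8.31e-05) at day 6. Without Notch1-/- day 0 replicate 2 the day 0 difference was 1.21 and was not called. The partner had 24.2 to 53.6 FPKM over all libraries and its differences of -0.34 and -0.18 did not pass the test (adjusted p = 0.284 and 0.515). Aen and Isg20 cannot be separated within it. The percentage of the partner level was 1.48% to 1.96% in WT and 5.61% to 11% in Notch1-/- libraries.

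**Figure D4:**
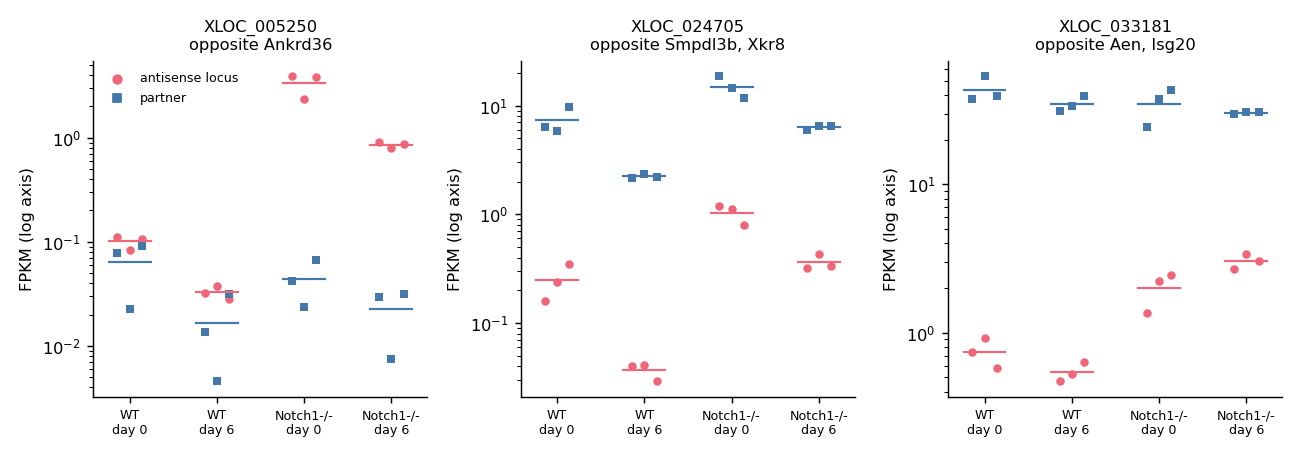
FPKM (log axis) of XLOC_005250, XLOC_024705 and XLOC_033181 (circles) and of their partners (squares) in each library, with group means as bars. All Notch1-/- libraries of XLOC_005250 (0.799 to 3.91) are above all WT libraries (0.0283 to 0.112), and the partner of XLOC_033181 overlaps between genotypes.

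Several named loci lie opposite zinc-finger genes, a family with many near-identical copies, and how reads were divided among copies was not tested. XLOC_008812 on chromosome 13 (66645263 to 66908452), opposite a merged locus of Vmn2r-ps104, 2410141K09Rik and Zfp640, had 1.05, 1.45 and 1.21 FPKM in WT day 0 and 4.19, 4.74 and 4.34 in Notch1-/- day 0. At day 6 it had 0.372, 0.367 and 0.530 in WT and 1.40, 1.69 and 1.34 in Notch1-/- cells. It was higher in Notch1-/- cells by 1.77 (log2, limma adjusted p = 0.000286) and 1.60 (adjusted p = 0.000169). Its partner differed by -0.61 in FPKM at day 6 and by 0.81 in counts, so the direction of the partner depends on the unit.

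On chromosome 4, 3 of the 5 loci opposite Zfp990 were lower in Notch1-/- cells. XLOC_025874 had 11.5, 24.7 and 18.7 FPKM in WT day 0 and 0.858, 2.12 and 1.92 in Notch1-/- day 0, a log2 difference of -3.43 (limma adjusted p = 0.000161). XLOC_025872 was at 3.32 to 3.70 FPKM in WT day 0 and listed at or near 0 in all 6 Notch1-/- libraries, and XLOC_025873 was at 5.72 to 8.95 against 0.161 to 0.306 at day 0. Zfp990 had 68.7, 91.5 and 90.2 FPKM in WT day 0 and 3.48, 11.6 and 10.8 in Notch1-/- day 0. These 3 share the same partner and are not independent, and none had over 6 counts in a library. In counts Zfp990 itself did not differ by the test at day 0 (edgeR log2 -0.87, adjusted p = 0.156) or day 6 (0.03, adjusted p = 0.968), where FPKM gave -3.43 and -3.23. The other 2 loci opposite Zfp990, XLOC_025870 and XLOC_025871, averaged 0.174 and 0.350 FPKM and were not tested. The nearby XLOC_025869, with no shared exon base, had 2.51, 0.982 and 2.28 FPKM against 0.0867, 0.222 and 0.171 (log2 -2.90, adjusted p = 0.000712). Outside WT day 0, XLOC_025869 reached 0.5 FPKM only in WT day 6 replicate 3 (0.576), too few to pass the filter. Its adjusted p is thus no independent support for a high WT day 0 level.

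Within chromosome 7, XLOC_032409 lies opposite Ifitm6, a gene of the interferon-induced transmembrane family, and was higher in Notch1-/- cells by 1.62 at day 0 (limma adjusted p = 0.0129), with 0.894 to 1.48 FPKM against 0.166 to 0.543. Without Notch1-/- day 0 replicate 2 the difference was 1.43, without WT day 0 replicate 1 it was 1.55, and neither was called. In counts the day 0 difference was 1.47 and did not pass (edgeR adjusted p = 0.072).

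Whether the change over differentiation itself differed between genotypes was tested as an interaction, the Notch1-/- change minus the WT change. Of the 338 loci, 27 were called, 16 positive and 11 negative, beside 13.0% of all loci, 7.15% positive and 5.89% negative. The count was 47 without WT day 0 replicate 2. Without WT day 6 replicate 1 it was 14, 12 positive and 2 negative, without replicate 2 it was 13, 11 and 2, and without replicate 3 it was 17, 14 and 3. The filter then passed 318, 322 and 319 antisense loci, and those that passed only through WT day 6 were no longer tested. edgeR tested 20 of the called loci and called 9, all in the same direction, where it called 11.3% of all loci. The loci opposite T and Eomes had positive differences of 3.81 ± 0.586 (log2, SE, limma adjusted p = 0.00254) and 2.13 ± 0.446 (adjusted p = 0.0122). For XLOC_037930, opposite Eomes, edgeR gave 2.31 with an adjusted p of 0.0788. At day 6 alone both were higher in Notch1-/- than in WT cells, by 2.58 (adjusted p = 0.00113) and 2.29 (adjusted p = 0.000439), and T and Eomes by 2.86 and 2.72.

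XLOC_020661 was high in Notch1-/- day 6 and near 0 in the other groups. It lies tail to tail with an unnamed locus on chromosome 2 (70294738 to 70322478, minus strand, 96.68% shared). Its FPKM was 2.33, 2.05 and 1.38 in Notch1-/- day 6 and at most 0.130 in each of the other 9 libraries. The Notch1-/- day 6 libraries alone carried it past the filter, so its adjusted p is no independent support for that pattern. The interaction was 3.87 ± 0.342 (log2, SE, limma adjusted p = 0.000102), and its partner, at 22 to 42 FPKM in Notch1-/- day 6 and 6.61 to 8.43 elsewhere, had 1.99. XLOC_020690, also on chromosome 2 (74541072 to 74546563), showed the reverse: 2.38, 2.19 and 1.35 FPKM in WT day 6, 0.0802, 0.0517 and 0.0192 in Notch1-/- day 6 and at most 0.296 at day 0, an interaction of -3.96 ± 0.465 (limma adjusted p = 0.000598), with -4.14 in counts (edgeR adjusted p = 0.0789). XLOC_020690 likewise passed the filter only through its WT day 6 libraries. Its change in Notch1-/- cells, -1.02, lost its call without Notch1-/- day 0 replicate 2 or 3 or day 6 replicate 2 or 3 (-1.04 to -0.82), and under the replicate block. Its partner, which has no name here, moved with it, from at most 0.608 FPKM at day 0 to 2.79 to 4.98 in WT day 6 and 0.0268 to 0.154 in Notch1-/- day 6.

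XLOC_010864, opposite the non-coding gene 2610035F20Rik on chromosome 14 with 97.56% shared, had 16.5, 15.3 and 22.8 FPKM in Notch1-/- day 6 and 2.52 to 8.66 in the other groups, with at most 15 counts in any library and none in Notch1-/- day 0. It rose by 1.94 in Notch1-/- cells (limma adjusted p = 0.0025) and fell by 1.12 in WT (adjusted p = 0.0299). The fall in WT was not called without WT day 0 replicate 2 (-0.998) or 3 (-1.02) or without WT day 6 replicate 1 (-1.04) or 2 (-1.001). XLOC_022930, matched to Gm16233 and Gm35066 and spanning Clca4a, a chloride channel regulator gene, rose by 2.86 in Notch1-/- cells (adjusted p = 0.00309), from 0.351, 0.162 and 1.38 to 3.30, 5.97 and 3.17 FPKM. Its WT values were 3.49, 2.49 and 6.11 at day 0 and 1.19, 1.2 and 1.88 at day 6, a change of -1.37 that did not pass (adjusted p = 0.0712).

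The partners were also read by gene list. Of 3 antisense loci opposite Notch pathway genes, the one opposite Jag1, a Notch ligand, was tested: XLOC_019897 had 0.483 to 1.69 FPKM and passed in no comparison, while Jag1 itself was lower in Notch1-/- cells at day 0 (log2 -0.90, limma adjusted p = 0.00429). Those opposite Hes7 and Rbpj averaged 0.0342 and 0.0013 FPKM. Of 2 opposite naive pluripotency genes, the one opposite Nanog was tested and passed in none of the comparisons, and the one opposite Dppa4 averaged 0.0356 FPKM. The list of primitive streak and early mesoderm genes, which also held Otx2, a gene of epiblast and anterior tissue, had 3. These lie opposite T, Eomes and Otx2. All 3 were tested and were higher in FPKM in Notch1-/- than WT cells at day 6, where 15.8% of all loci were higher. The locus opposite Otx2 had at most 4 counts in any library. The lists of endothelial and germline genes had no antisense locus, and the 2 opposite Ttn, the giant sarcomere protein, averaged under 0.1 FPKM.

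Nanog, a core pluripotency factor, fell while the locus spanning it did not follow in FPKM. XLOC_030432 (minus strand, chromosome 6, 122641748 to 122670077, 20894 exon bases, 21.67% shared) had 7.82, 8.98 and 7.41 FPKM in WT day 0, 8.11, 8.09 and 7.20 in WT day 6, 9.40, 9.35 and 8.54 in Notch1-/- day 0, and 8.67, 9.17 and 8.41 in Notch1-/- day 6. All groups overlapped except that both Notch1-/- groups were above WT day 6. Nanog had 272, 234 and 151 FPKM in WT day 0 and 47.4, 53.2 and 58.3 in WT day 6, a log2 change of -2.01 (limma adjusted p = 0.000131). In counts, the antisense locus fell by 1.10 in WT (edgeR adjusted p = 0.00697) and was higher in Notch1-/- than WT cells at day 6 by 1.13 (adjusted p = 0.00985), so FPKM and counts do not give the same call.

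Otx2, a homeobox gene of epiblast and anterior tissue, lies opposite XLOC_010484, which shares 89.95% of its exon length. The antisense locus had 29.1, 20.6 and 36.7 FPKM in Notch1-/- day 6 and 7, 5.92 and 9.37 in WT day 6, a difference of 1.93 ± 0.434 (log2, SE, limma adjusted p = 0.00751), beside 2.05 for Otx2. It stood at 51.5% to 86.6% of the level of Otx2, with at most 4 counts in any library. Of 5 loci opposite Wnt genes, those at Dkk1 and Apc were tested, and the one opposite Smad4, the shared effector of TGF-beta and BMP signalling, rose by 0.61 in WT (adjusted p = 0.0141). That rise was 0.56 and not called without WT day 6 replicate 1. XLOC_023218, wholly inside the exons of Nes, the neural progenitor filament gene, was at 7.97 to 9.66 FPKM in Notch1-/- day 6 against 2.59 to 3.69 in WT day 6 (log2 1.42, adjusted p = 0.016) with no count in any library. Without WT day 6 replicate 1 it was 1.28 and without Notch1-/- day 6 replicate 3 it was 1.33, neither called.

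XLOC_020692, which matched Haglr, a long non-coding RNA of the Hoxd cluster, lies opposite Hoxd4 and Hoxd3 and is named after its values were seen, as its mean is under 0.5 FPKM. It had 1.08, 0.964 and 0.580 FPKM in WT day 6, 0.161, 0.153 and 0.0602 in Notch1-/- day 6 and at most 0.0592 at day 0. XLOC_020692 passed the filter only through its WT day 6 libraries. It was lower in Notch1-/- day 6 by 2.11 ± 0.269 (log2, SE, limma adjusted p = 0.000274), beside 4.04 for its partner, and had no count in any library. Of the other Hox loci found, those opposite Hoxb3, Hoxc9 and the Hoxc4 and Hoxc6 locus averaged under 0.15 FPKM and were not tested. Only 10 of the 52 listed Hox symbols matched a locus, so antisense loci opposite the rest could not be found by name.

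Antisense loci and partners were set side by side across the pairs. Both were called in 88 pairs in WT over differentiation, 86 of them in the same direction, and in 66 in Notch1-/- cells, 63 of them in the same direction. At day 0 both were called between genotypes in 5 pairs, all in the same direction: the 3 at Zfp990, XLOC_024705 and XLOC_032483. At day 6 there were 47, 43 in the same direction. As a description across pairs, Pearson's r of the 2 log2 changes was 0.826 and 0.819 over differentiation and 0.625 and 0.706 between genotypes. With under 50% of exon length shared, r was 0.817 and 0.652 over differentiation. The loci of a pair share libraries, and often exon bases, so these values are no independent evidence of joint control.

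**Figure D5:**
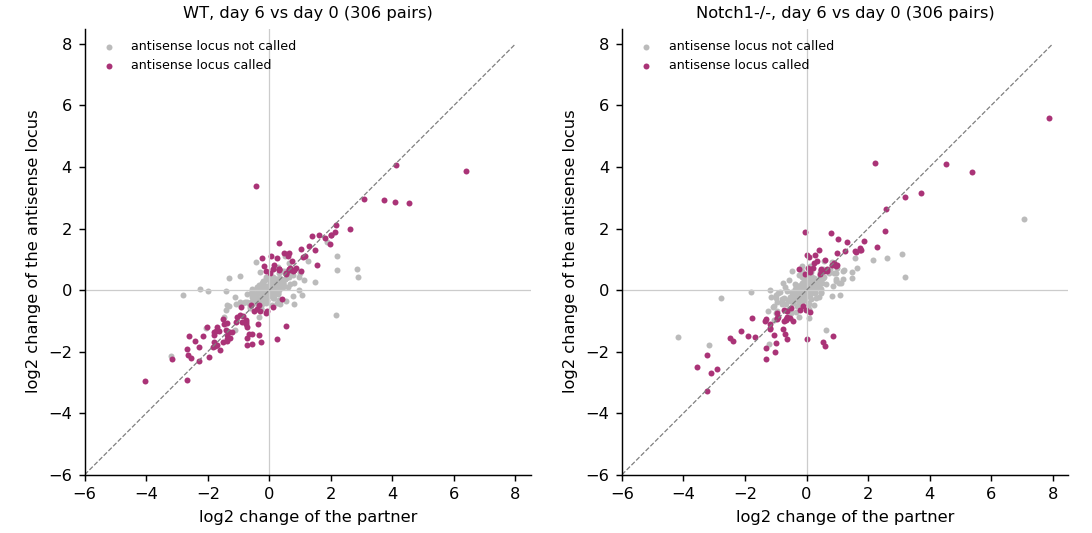
log2 change of the antisense locus (y axis) against that of its partner (x axis) from day 0 to day 6 in WT and in Notch1-/- cells for 306 pairs, with a dashed line at equal change. Most called loci (purple points) lie in the quadrants of equal direction, and XLOC_015414 opposite T is the point at 7.89 and 5.60 in Notch1-/- cells.

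The few pairs that passed in opposite directions were picked after their values were seen. XLOC_029934 lies head to head with Snd1, a component of the RNA-induced silencing complex, and shares 1.79% of its exon length. It had 0.448, 0.889 and 1.05 FPKM in Notch1-/- day 0 and 0.136, 0.159 and 0.207 in Notch1-/- day 6, without overlap, and fell by 1.69 ± 0.429 (log2, SE, limma adjusted p = 0.0116). Snd1 rose by 0.53 (adjusted p = 0.0244), and counts gave -2.35 and 0.47. XLOC_004659, opposite a merged locus with the histone demethylase gene Kdm6b, fell by 1.5 in Notch1-/- cells while that locus rose by 0.86, but had at most 9 counts in any library. XLOC_031413, opposite the zinc-finger genes Zfp94 and Zfp61, fell by 1.15 in WT while its partner rose by 0.55. Without WT day 0 replicate 3 its fall was 0.85, without WT day 6 replicate 2 it was 1.04, and neither was called.

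The other opposite pairs were XLOC_034532 with Mau2 and XLOC_010203 with a locus of Usp54, Anxa7, Ppp3cb and Mss51 over differentiation, and XLOC_008812, XLOC_008820, XLOC_029932 with Arf5 and XLOC_036760 with Tmem30a and Cox7a2 between genotypes at day 6. Counts reversed the antisense change at Mau2 (0.66 against -0.29) and at Arf5 (-0.50 against 1.18), and at Tmem30a and Cox7a2 they gave the partner a fall of 0.70. XLOC_036760 was not called at day 6 without any 1 of the 6 day 6 libraries, with values from -0.59 to -0.52. XLOC_034532 lost its call in WT without WT day 0 replicate 3 (-0.24), WT day 6 replicate 1 (-0.24) or 3 (-0.27) or any Notch1-/- day 6 library (-0.29). XLOC_010203 lost its call in Notch1-/- cells without Notch1-/- day 0 replicate 2 (0.61) or 3 (0.66) or without day 6 replicate 1 (0.71), 2 (0.74) or 3 (0.62).

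By arrangement, loci inside the partner were called over WT differentiation in 37.8% of 119 tested, tail to tail in 37.6% of 117, head to head in 34.0% of 47 and spanning in 35.9% of 39, beside 45.0% of all loci. Of 16 tested loci with no shared exon base, 3 rose and 9 fell in WT, 75%, where 22.7% of all loci were higher and 22.3% lower. Between genotypes at day 0, loci inside the partner were called in 12.6%, tail to tail in 3.4%, head to head in 8.5%, spanning in 5.1% and with no shared exon base in 37.5%, beside 7.05% of all loci. These are counts without a test between arrangements. Of all 338 tested loci, 102 (30.2%) had their highest group mean in WT day 0, 100 (29.6%) in WT day 6, 74 (21.9%) in Notch1-/- day 0 and 62 (18.3%) in Notch1-/- day 6. Among all loci tested the same shares were 21.7%, 32.2%, 24% and 22%.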

How the data were processed

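Per the labels' protocols, poly(A) RNA was read as pairs of 100 bases on an Illumina HiSeq2000. Tools listed by the submitters' processing notes, with no role for each, are Cufflinks 2.1.1, TopHat2 2.0.8, DESeq and HTSeq 0.5.4p3, beside build mm9. No strand setting is stated. Raw counts per locus, FPKM per locus and a merged transcript annotation were deposited. FPKM was tested as log2(FPKM + 0.1) with limma 3.58.1 (trend, two-sided, all 12 libraries in 1 fit) in R 4.3.3. Loci needed 0.5 FPKM in at least 3 libraries, 15069 passed, and a locus was called at a Benjamini-Hochberg adjusted p under 0.05. A locus high in 1 group alone could pass only through that group, so its call is no independent support for that pattern. The deposited counts were tested with edgeR 4.0.16 and DESeq2 1.42.0 as alternatives. The limma and edgeR fits were tested on simulated data, for WT day 6 against day 0 only.

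Genes were named by matching exon structures to GENCODE on GRCm38. Coordinates were not converted, but a match had to lie near the place given by the local shift between builds. This named 18040 loci, 961 partners and 105 antisense loci, 71 of these antisense loci by intron length and position only. The main exon search on another chromosome gave 3 false matches. The intron search with altered lengths gave 1. RefSeq windows matched 750 of the 961 partners and 46 of the 105. Loci named are the 4 largest called changes each way per comparison with at least 1 FPKM in the higher group and no overlap, the 6 highest loci, up to 4 per partner gene list, and the 4 highest sharing under 25%. The antisense loci and lists were chosen with earlier results of these data known. No label says what a library number marks. Deviations of libraries with the same number correlated over 0.1 in 8 of 18 cases (-0.056 to 0.309), and of libraries with different numbers in 0 of 36. All 3 same-number values exceeded 0.1 between WT day 0 and Notch1-/- day 0 (0.127 to 0.309) and between WT day 0 and WT day 6 (0.112 to 0.152), so numbers were read as pairs in those 2 comparisons only. The calls reported above did not use this pairing. The replicate block, run as an alternative, called 40 antisense loci against 31 between genotypes at day 0, and 132 against 131 in WT over differentiation. Alternatives changed the pseudocount, filter, scaling, test, replicate block, shared exon limit and libraries used. The result for 1 locus of the partner lists is not reported here.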

Additional observations from a re-analysis of the deposited data

Results flagged for a closer look

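By limma's test of the interaction (log2 scale, Notch1-/- change minus WT change), 27 of the 338 antisense loci were called, beside 13.0% of all loci. The 14 loci below are called loci that were also picked for naming. Among the 14, XLOC_020661, XLOC_020690, XLOC_020692 and XLOC_025885 passed the filter only through the group where they were high. XLOC_026618 and XLOC_031526 would not have passed without WT day 6 either. Outside it they reached 0.5 FPKM only in WT day 0 replicate 1 (0.776) and Notch1-/- day 6 replicate 1 (0.531). The calls of these loci are thus no independent support for their patterns. XLOC_015414, opposite T, had a difference of 3.81 and XLOC_037930, opposite Eomes, one of 2.13. XLOC_020661 had 3.87 and XLOC_010864, opposite 2610035F20Rik, had 3.05. XLOC_022930, opposite Clca4a, had 4.24 and XLOC_000977, opposite an unnamed locus, had 1.28, the latter with at most 1 count in any library. At XLOC_025872, opposite Zfp990, the difference of 1.59 rests on Notch1-/- libraries listed at or near 0 FPKM. XLOC_005250, opposite Ankrd36, had -1.23, which was not called without any 1 WT day 6 library or without Notch1-/- day 6 replicate 2 or 3 (values from -1.26 to -1.19), and counts gave -0.23. XLOC_020690 had -3.96 and XLOC_031526, opposite Cd22, had -2.92, the latter with 1, 1.09 and 1.08 FPKM in WT day 6. In counts XLOC_020690 and XLOC_031526 gave -4.14 and -2.75 and neither passed (edgeR adjusted p = 0.0789 and 0.0602). XLOC_020692, opposite Hoxd4, had -2.01. XLOC_030222, opposite Mob1a, had -1.001, which was not called without any 1 WT day 6 library or Notch1-/- day 6 replicate 3 (values from -1.02 to -0.96), and counts gave -0.57 (edgeR adjusted p = 0.346). XLOC_026618, opposite Gm17019, had -5.14 with at most 2 counts in any library. The fitted -5.25 of XLOC_025885 has no fold behind it: its FPKM is listed at 0 in 8 of the 12 libraries and 0.0497 in 1, against 4.61, 3.33 and 5.03 in WT day 6, while its counts were 132, 182 and 97 in WT day 0 and 118, 66 and 113 in WT day 6.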

How the results depend on the processing

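In the order WT over differentiation, Notch1-/- over differentiation, genotype at day 0, genotype at day 6 and interaction, antisense loci called were 333, 227, 78, 180 and 87 with no filter. That was 28.86%, 19.67%, 6.76%, 15.6% and 7.54% of 1154 tested. In the main test it was 38.76%, 30.77%, 9.17%, 24.85% and 7.99% of 338. At 1 FPKM or more the first 4 were 66, 58, 19 and 48 of 169 tested (39.05%, 34.32%, 11.24% and 28.4%). With edgeR the calls were 295, 244, 77, 163 and 65 of 731 tested (40.36%, 33.38%, 10.53%, 22.3% and 8.89%). With edgeR and no filter they were 299, 234, 72, 156 and 59 of 1010 (29.6%, 23.17%, 7.13%, 15.45% and 5.84%). DESeq2 gave 326, 284, 122, 213 and 106 of 731 (44.6%, 38.85%, 16.69%, 29.14% and 14.5%). The share of all loci is given above for the main test and edgeR only. Loci sharing under 50% gave 59, 45, 15, 36 and 11 of 163 tested (36.2%, 27.61%, 9.2%, 22.09% and 6.75%). Leaving out 1 library gave 83 to 136, 68 to 114, 18 to 74, 40 to 100 and 13 to 47, over the 318 to 337 loci that then passed the filter. With the replicate block the counts were 132, 110, 40, 93 and 33. In the 2 comparisons where numbers pair libraries, WT over differentiation and genotype at day 0, the block lost no named call. Of all 123 named calls it lost 2, those of XLOC_020690 and XLOC_032409 in Notch1-/- cells over differentiation.

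Of 125 called changes of named loci, 30 lost their call without at least 1 library and 0 reversed. A call whose locus failed the filter without a library could not be checked there, so it is not shown to hold. Named calls checked were 109 without any 1 WT day 6 library, and 117 to 123 without any 1 other library. The reversals came from tests on counts, and the cause was not tested. With edgeR, edgeR without a filter and DESeq2 in that order, XLOC_025885 gave -0.41, -0.40 and -0.36 in WT and 0.45, 0.43 and 0.35 for the interaction. XLOC_030222 gave -0.072, -0.051 and -0.019 in WT, XLOC_034532 gave 0.66, 0.68 and 0.71 in WT and 0.38, 0.39 and 0.43 between genotypes at day 0, and XLOC_029932 gave -0.50, -0.51 and -0.55 at day 6. With edgeR without a filter alone, XLOC_013615 gave -4.79 in Notch1-/- cells, XLOC_025874 gave 0.50 there and 4.47 and 4.97 between genotypes, XLOC_000977 gave -0.19 for the interaction and XLOC_008820 gave 3.13 at day 6.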

Other observations

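XLOC_017062 lies wholly inside the exons of Apc, the scaffold of the beta-catenin destruction complex. In WT day 0 replicate 2 both XLOC_017062 and Apc are listed at 0 FPKM, while XLOC_017062 has 5.12 to 9.36 FPKM and Apc 7.47 to 12.3 in the other 11 libraries. The counts of Apc in that library were 9212, within its range over the others. The antisense locus opposite the imprinted gene Zdbf2, XLOC_001009, had 4.80 FPKM in Notch1-/- day 0 replicate 3 and at most 0.822 in any other library, and was not tested. XLOC_024722, which shares 99.11% of its exon length with Arid1a, a subunit of the BAF chromatin remodeller, had 8.51 to 20.6 FPKM with no count in any library, and passed in no comparison.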
